A study of Mus musculus with 54 samples.

Results

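A set of 10 marker genes of blood and border cells was followed through RNA of sorted mouse microglia: S100a8, S100a9 and Retnlg for neutrophils, Ly6c2, Ccr2 and Plac8 for monocytes, and Mrc1, Cd163, Pf4 and Ms4a7 for the macrophages at the borders of the brain. They were taken by symbol from both RNA tables and are 10 of the 55536 genes that each table lists. The question was whether cells other than microglia were present among the sorted cells after lipopolysaccharide (LPS) or in Ercc1 mutant mice, and the genes were therefore read library by library.

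Neutrophils are short-lived blood leukocytes that store antimicrobial proteins in granules and hold S100a8 and S100a9 in large amounts. Classical monocytes are their blood-borne companions, carry Ly6C and the chemokine receptor Ccr2 on the surface, and can enter inflamed brain. Border macrophages sit in the meninges, the perivascular spaces and the choroid plexus, and differ from microglia, the macrophages of the parenchyma, by scavenger receptors such as Mrc1 and Cd163. All of these cells carry CD11b, so a microglia sort separates them by the intensity of CD45 and by Ly6C.

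In the recurrent LPS model, male C57BL/6J mice that arrived at 7 to 9 weeks of age received 2 intraperitoneal injections 4 weeks apart, with LPS at 1 mg/kg. The groups were LL (LPS, then LPS), PL (PBS, then LPS), LP (LPS, then PBS) and PP (PBS, then PBS). In the Ercc1 model, mice of 11 to 12 weeks on a mixed FVB/C57BL/6J background carried a knockout and a truncated allele of the DNA repair gene Ercc1 in every cell (Ercc1 Δ/ko, called KO) or were littermates with wt/Δ, wt/ko or wt/wt alleles (called WT). They received LPS at 1 mg/kg or PBS once, giving the groups KO-LPS, WT-LPS, KO-PBS and WT-PBS. All mice were killed 3 h after the last injection and perfused, and living cells with high CD11b, intermediate CD45 and no Ly6C were sorted. RNA came from 3 mice per group with 1 library per mouse, which are named here by group and replicate, or in the Ercc1 model as in the labels, where Control stands for WT and the last number for the mouse. Chromatin data came from 1 pool of mice per group and were not replicated.

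The libraries held 4530390 to 15307800 expected counts in the recurrent LPS model and 18243900 to 34659300 in the Ercc1 model. Levels are given as CPM, the count scaled to the TMM-adjusted library total, and 3 counts, taken as the limit that a count of 0 allows, equal 0.188 to 0.677 CPM in the recurrent LPS libraries and 0.0804 to 0.156 CPM in the Ercc1 libraries, for counting error only. All 12 genes of a microglia list were tested in both models, and their summed level ran from 19378 to 41997 CPM and from 19816 to 54712 CPM. It was 19378 to 26996 CPM in PL against 36025 to 41482 CPM in PP, and 19816 to 27414 CPM in KO-LPS against 34021 to 41894 CPM in WT-LPS. Control_PBS_175 stood apart from its group, with a microglia sum of 21245 CPM against 50172 and 54712 CPM in the other 2 WT-PBS libraries. Ercc1 itself read 4.67 to 6.82 CPM in KO-LPS against 7.93 to 9.82 CPM in WT-LPS, and 5.14 to 8.18 CPM in KO-PBS against 8.79 to 10.96 CPM in WT-PBS, so no KO library reached the lowest WT library of its treatment. The summed level of 11 lymphocyte genes was 5.34 to 5.72 CPM in KO-LPS against 0.291 to 0.937 CPM in WT-LPS, and highest in LP 2 among the recurrent LPS libraries, at 4.2 CPM. Of 6 erythrocyte genes, 5 were highest in LP 2 among the recurrent LPS libraries and 4 in KO_LPS_600 among the Ercc1 libraries. The part of lymphocytes and erythrocytes in the results was not tested, and the shares of all genes highest in LP 2 or KO_LPS_600 were not counted.

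On a scale per kilobase of gene model, the members were low beside the microglia gene P2ry12, which averaged 1208 CPM per kb over the recurrent LPS libraries and 1445 CPM per kb over the Ercc1 libraries. S100a9 reached 192 CPM per kb in its highest recurrent LPS library, but only 8.99 CPM per kb in its highest Ercc1 library. Ccr2 averaged 4.65 CPM per kb in the recurrent LPS model and 2.97 CPM per kb in the Ercc1 model. Mrc1 averaged 3.49 and 3.22 CPM per kb in the same order of models. Cd163, Ly6c2 and Ms4a7 averaged at most 0.324 CPM per kb in either model.

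Only 6 members passed the filter on low counts in each model. These were S100a8, S100a9, Ccr2, Plac8, Mrc1 and Cd163 in the recurrent LPS model, and Ccr2, Plac8, Mrc1, Cd163, Pf4 and Ms4a7 in the Ercc1 model, and the other 4 in each model are given as levels. A gene that passes the filter through the group where it is high is not a neutral choice, so the counts of calls below describe the tested members only. A call is an adjusted p under 0.05 in the quasi-likelihood test of edgeR, adjusted over all genes tested. In bulk RNA, fewer cells of a type and less RNA per cell cannot be told apart, and neither can a few foreign cells and low expression by microglia.

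S100a8 and S100a9, the subunits of calprotectin and the most abundant proteins of the neutrophil cytosol, were high in 2 of the 3 PL libraries. S100a9 had 0.618, 68.0 and 100.07 CPM in PL 1, PL 2 and PL 3, against 0, 0.577 and 16.4 CPM in PP 1, PP 2 and PP 3. S100a8 had 0.0883, 35.5 and 55.0 CPM in the same PL libraries, against 0, 0.833 and 12.6 CPM in the PP libraries. PL 2 and PL 3 thus exceeded every PP library, whereas PL 1 lay below PP 3, and the groups overlapped for both genes. In counts, PL 1 held 7 of S100a9 and 1 of S100a8, while PL 3 held 699 and 384.

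**Figure D1:**
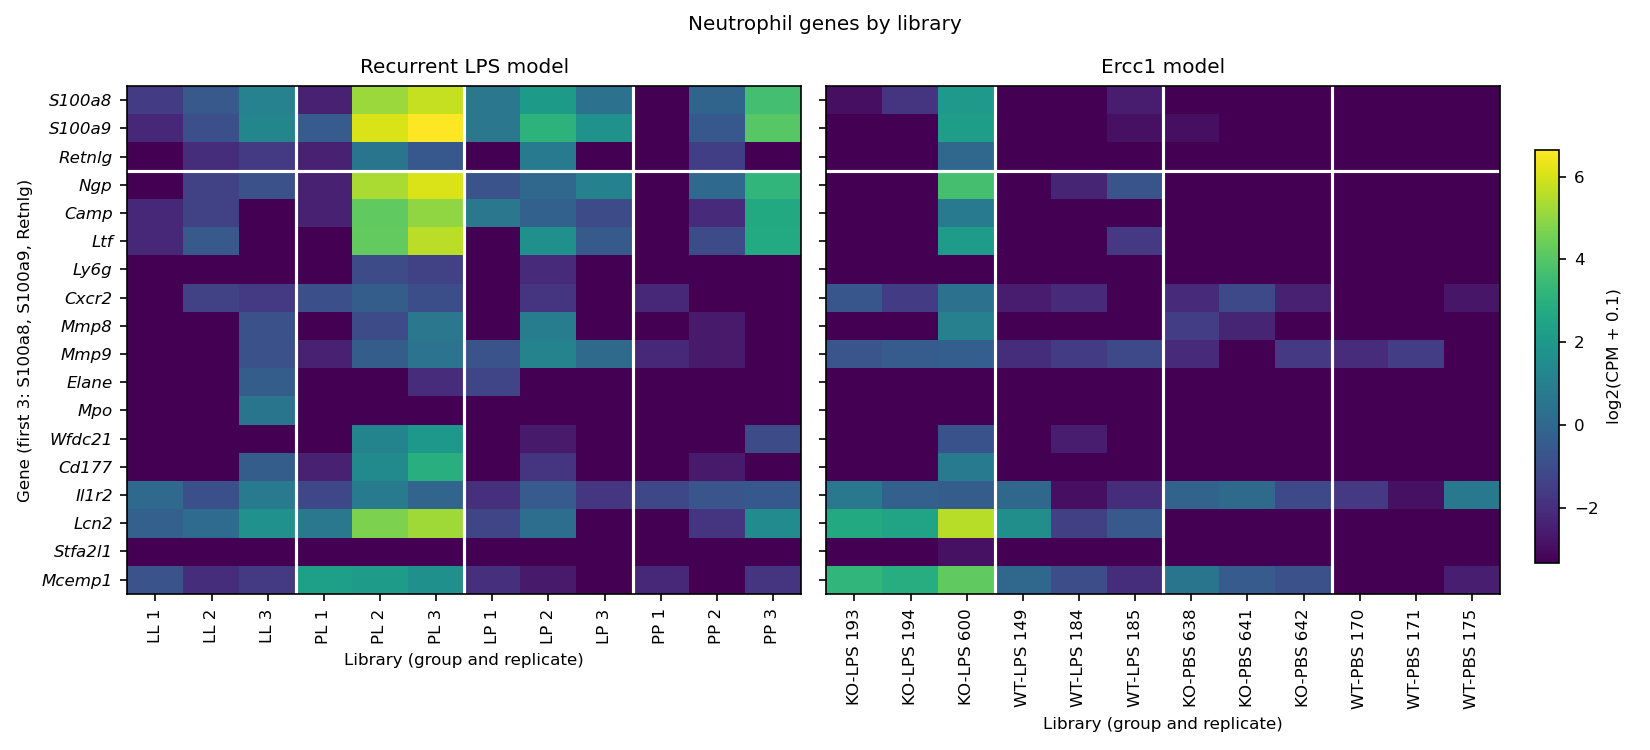
Level of neutrophil genes in each of 24 libraries, with genes in rows, libraries in columns and colour giving log2(CPM + 0.1); white lines separate groups and set off S100a8, S100a9 and Retnlg from the other list, which is shown without Csf3r. The rows of S100a8, S100a9, Ngp, Camp, Ltf and Lcn2 are brightest in PL 2 and PL 3, with S100a9 at 68.0 and 100.07 CPM, and in the Ercc1 model S100a8, S100a9 and Retnlg are brightest in KO_LPS_600.

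In LL, where the second LPS injection followed a first one, S100a9 had 0.122, 0.440 and 2.26 CPM, against 1.44, 8.53 and 3.40 CPM in LP. S100a8 had 0.243, 0.587 and 2.03 CPM in LL, against 1.44, 4.26 and 1.20 CPM in LP. The LL and LP ranges overlapped for both genes, and no LL library came near PL 2 or PL 3. Retnlg, which encodes resistin-like gamma, a protein that mouse neutrophils release, stayed under the limit of detection in most libraries. It had 27 counts in LP 2, 10 in PL 2, 4 in PL 3, 4 in PP 2 and at most 1 in each of the other 8 recurrent LPS libraries. Its highest level was 1.69 CPM in LP 2, followed by 1.35 CPM in PL 2. With so few counts the order of these 2 libraries is uncertain.

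Set against PP, PL showed S100a8 higher by 3.15 on the log2 scale (SE 1.22, adjusted p = 0.0426) and S100a9 higher by 3.77 (SE 1.27, adjusted p = 0.0228). In this comparison 4 of the 6 tested members were higher and 0 were lower, where 26% of all genes tested were higher and 26.6% were lower, so a call in this comparison was common. Both S100 calls depended on single libraries. Without PL 2, PL 3, PP 1 or PP 2 the adjusted p was 0.0902, 0.181, 0.120 or 0.154 for S100a8 and 0.0505, 0.0948, 0.0733 or 0.0933 for S100a9. S100a8 was also not called without LL 1, LL 2, LL 3 or LP 1 (adjusted p = 0.0535, 0.0569, 0.0521 and 0.0525). Without PP 3 the log2 differences became 5.78 for S100a8 and 7.19 for S100a9. DESeq2 gave adjusted p = 0.201 and 0.126 for these 2 genes, whereas limma with surrogate variables, the test of the study, gave log2 differences of 6.13 and 7.0 that were both called. Limma without surrogate variables called neither gene, and neither did the fit of the compared groups alone.

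LL against PL gave S100a9 lower, with a log2 difference of -6.21 (SE 1.69, adjusted p = 0.0380), and S100a8 at -5.20 (SE 1.57, adjusted p = 0.0573). The groups overlapped for both genes, since PL 1 was as low as the LL libraries. The S100a9 call was not made without LL 1, LL 2, LL 3, PL 2, PL 3 or LP 1, where the adjusted p was 0.123, 0.1803, 0.0811, 0.0980, 0.0857 and 0.0501. With limma and surrogate variables the log2 difference of S100a9 was -2.27 (adjusted p = 0.274). The interaction of the 2 injections for S100a9 was -6.57 (SE 2.35, adjusted p = 0.190).

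Several other neutrophil genes followed S100a8 and S100a9 library by library. Ngp, a granule protein of maturing neutrophils, had 0.0883, 41.3 and 67.3 CPM in PL, against 0, 0.962 and 9.34 CPM in PP. Ltf (lactoferrin), Camp (cathelicidin) and Lcn2 (lipocalin 2), further granule proteins, were also highest in PL 3 and second in PL 2. Mcemp1, a membrane protein of mast cells and myeloid cells, differed from them, with 4.86, 4.45 and 3.15 CPM in the PL libraries, PL 1 included, against 0.115, 0 and 0.191 CPM in PP. Of a list of 16 other neutrophil genes, 15 had a count in the recurrent LPS model, and PL 2 was among the top 2 libraries for 10 of them and PL 3 for 9. The shares of all genes with PL 2 or PL 3 among the top 2 were not counted. Without Csf3r, a growth factor receptor that read 646 to 1140 CPM in every recurrent LPS library and 573 to 990 CPM in every Ercc1 library, the summed level of the other 15 was 7.504 to 205 CPM in PL against 0.692 to 26.3 CPM in PP, and 2.43 to 9.26 CPM in LL against 3.37 to 10.97 CPM in LP.

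Of this list, 6 genes were tested in the recurrent LPS model. In PL against PP 5 were higher (Mcemp1 by 5.64 and Lcn2 by 5.04 on the log2 scale) and Csf3r was lower, with a log2 difference of -0.36, beside 26% of all genes higher and 26.6% lower. In LL against PL 5 were lower, beside 4.73% of all genes, with the largest differences at Ngp (-7.33) and Camp (-6.60). Ly6g, which defines mature neutrophils, had 3 counts in PL 2, 2 in PL 3, 2 in LP 2 and 0 in the other 9 recurrent LPS libraries. Within PL 2 and PL 3 the S100a8 count was 52.2% and 54.9% of the S100a9 count, and the Ngp count was 60.7% and 67.2% of it. PP 3 had 76.7% and 57.0% by the same 2 measures, whereas LP 2 had 50.0% for S100a8 but 11.03% for Ngp. The part of other cells in these levels was not tested.

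The neutrophil members were at or near 0 in 11 of the 12 Ercc1 libraries. KO_LPS_600 held 113 counts of S100a8, 128 of S100a9 and 25 of Retnlg, which equal 4.14, 4.69 and 0.916 CPM. KO_LPS_193 and KO_LPS_194 held 1 and 4 counts of S100a8 and 0 of S100a9 and Retnlg. WT-LPS held 2 counts of S100a8 and 1 of S100a9 in its 3 libraries together, KO-PBS held 1 of S100a9, and WT-PBS held 0 of all 3 genes. None of the 3 passed the filter on low counts.

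With the floor of 3 counts taken over the 3 KO-PBS libraries, S100a8 was at least 41.3-fold higher in KO-LPS than in KO-PBS, and Retnlg at least 8.74-fold higher, but 113 of 118 and 25 of 25 counts came from KO_LPS_600. The other neutrophil genes were mostly highest in the same library. In all, 12 of the 13 with a count in this model were highest in KO_LPS_600, where Ngp had 12.8 CPM and Ltf 4.33 CPM, against 0 in KO_LPS_193 and KO_LPS_194. The share of all genes highest in KO_LPS_600 was not counted. Over all genes this library differed more from KO_LPS_193 and KO_LPS_194 (chi-square per gene 168 and 96.7) than they did from each other (30.7). Control_PBS_175 likewise differed more from Control_PBS_170 and Control_PBS_171 (166.6 and 192.8) than they did from each other (35.8). Its summed level of the neutrophil members was 0 CPM. Such a distance was therefore not particular to the library with neutrophil transcripts. The sum of the neutrophil list without Csf3r was 18.3, 14.5 and 91.8 CPM in the KO-LPS libraries, against 1.26 to 5.06 CPM in WT-LPS. In KO-PBS it was 1.12 to 2.68 CPM, against 0.282 to 1.66 CPM in WT-PBS. Ly6g, Elane and Mpo had 0 counts in every Ercc1 library, KO_LPS_600 included, and Mpo had 0 in PL as well. The Mpo zero therefore does not set KO_LPS_600 apart from PL 2 and PL 3. Over the PL libraries together Ly6g had 5 counts and Elane 1, and whether so few counts differ from 0 was not tested. The Ngp count in KO_LPS_600 was 273% of the S100a9 count, against 60.7% in PL 2 and 67.2% in PL 3.

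Lcn2 and Mcemp1 were highest in KO_LPS_600 too, and KO-LPS and WT-LPS did not overlap for either gene. Lcn2 had 6.55, 5.57 and 47.9 CPM in KO-LPS, against 2.96, 0.272 and 0.582 CPM in WT-LPS. Mcemp1 had 9.23, 7.35 and 18.5 CPM in KO-LPS, against 0.937, 0.408 and 0.146 CPM in WT-LPS, a log2 difference of 4.55 (SE 0.66, adjusted p = 0.000349). Lcn2 is also an acute phase gene that cells other than neutrophils make after LPS.

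The chromatin at the start of S100a8 and S100a9 was measured in pools. Both genes lay in 1 wide H3K27me3 region, the mark of Polycomb repression, which spanned chr3:90613001-90760200 in KO-PBS and chr3:90613201-90759600 in WT-PBS (GRCm38). S100a8 had in addition a small peak of H3K4me3, the mark of active or poised starts, within 1000 bp of its start in LL, PL, LP, PP, KO-PBS and WT-PBS. Its score in PL was higher than that of 5.27% of the PL peaks of that mark, and in PP higher than that of 0.690% of the PP peaks. Neither gene had an ATAC or H3K27ac peak at the start in any group, PL included. The 250 bases before the S100a8 start are shown because this is the only neutrophil member with a mark of active starts there. They come from RefSeq (GRCm38.p6, chr3:90668821-90669070, plus strand), and the last of them lie within the GENCODE gene model, which starts further upstream. The capitals mark matches to the core GAGGAA of PU.1, the leading factor of myeloid cells, on either strand.

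S100a8 upstream: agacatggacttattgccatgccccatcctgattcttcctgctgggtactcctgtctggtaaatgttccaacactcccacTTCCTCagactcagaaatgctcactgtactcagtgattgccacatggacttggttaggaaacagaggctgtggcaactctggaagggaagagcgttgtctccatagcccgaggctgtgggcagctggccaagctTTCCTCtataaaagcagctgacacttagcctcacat

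The 2 matches lie 170 and 36 bases before the start. Such a match was found in 23.3% of 32851 promoters of this length, so it is common, and S100a9 had none. S100a9 (chr3:90692632-90695721, minus strand) and S100a8 (chr3:90668978-90670035, plus strand) are neighbours, Retnlg lies at chr16:48872621-48874496 on the plus strand, and none of the 3 shares a stretch of 50 bases with another gene model, so reads of 50 bases from them match no other gene model.

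Of the monocyte members, Ly6c2 encodes the Ly6C antigen that the sort excluded. It had 0.0883, 1.89 and 4.44 CPM in PL, against 0.115, 0.128 and 0 CPM in PP. In LL it had 0.122, 0.147 and 0.452 CPM, against 0, 0.251 and 0 CPM in LP. PL 2 and PL 3 held 14 and 31 counts, LP 2 held 4 and the other libraries at most 2, and PL 2 and PL 3 are the libraries with the highest S100a8 and S100a9. In the Ercc1 model Ly6c2 had 0.0320, 0.411 and 0.440 CPM in KO-LPS, against 0, 0 and 0.0364 CPM in WT-LPS, and 3 counts in KO-PBS against 0 in WT-PBS. KO_LPS_194 and KO_LPS_600 were thus above all the other Ercc1 libraries. Ly6c2 (chr15:75108158-75111970, minus strand) was too low to be tested, and 379 of its 2733 stretches of 50 bases also occur in its neighbour Ly6c1, so part of its reads cannot be assigned to 1 gene.

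Plac8, a small cysteine-rich protein of monocytes, neutrophils and some lymphocytes, was higher in PL than in PP and higher in KO than in WT mice. It had 2.56, 2.697 and 4.01 CPM in PL, against 0.462, 0.513 and 1.33 CPM in PP. PL 1 was as high as PL 2, unlike for S100a8, and the groups did not overlap. The log2 difference was 2.16 (SE 0.45, adjusted p = 0.00115), which was called in all 21 alternatives with a range of 1.88 to 2.65. In LL Plac8 had 0.609, 1.47 and 1.58 CPM, against 0.962, 1.32 and 0.40 CPM in LP, and these groups overlapped (log2 difference 0.20, SE 0.51, adjusted p = 0.803). LL against PL gave -1.39 (SE 0.44, adjusted p = 0.0694), with no overlap between the groups, and the interaction gave -1.96 (SE 0.68, adjusted p = 0.175).

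**Figure D2:**
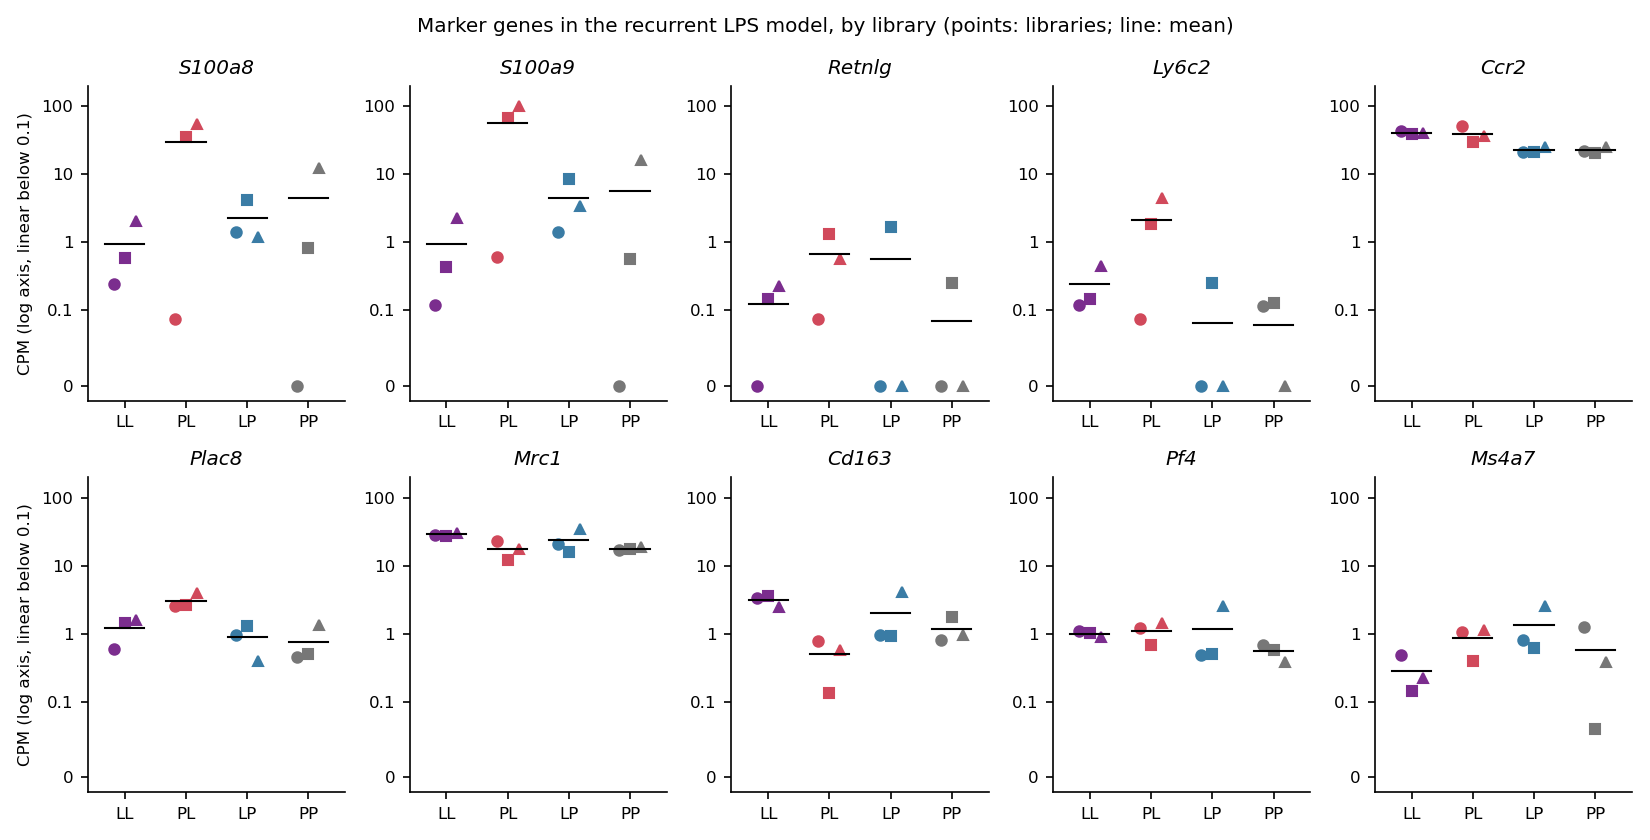
CPM of the 10 genes in the recurrent LPS model on a log axis that is linear below 0.1, with 1 point per library (circle, square and triangle for replicates 1, 2 and 3) and a line at the mean of each group. PL 2 and PL 3 stand far above PL 1 for S100a8 and S100a9, while Plac8 at 2.56 to 4.01 CPM and Ccr2 at 29.9 to 50.9 CPM are higher in every PL library than in PP.

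Among Ercc1 libraries, Plac8 had 5.46, 6.48 and 5.83 CPM in KO-LPS, against 0.637, 0.238 and 0.509 CPM in WT-LPS. In KO-PBS it had 3.34, 2.13 and 2.90 CPM, against 0.0352, 0.352 and 0.349 CPM in WT-PBS. Every KO library exceeded every WT library, with or without LPS, and KO_LPS_600 did not stand out for this gene. The log2 difference was 3.68 with LPS (SE 0.49, adjusted p = 0.000197) and 3.46 with PBS (SE 0.51, adjusted p = 0.00105), and both were called in all 19 alternatives. KO-LPS against KO-PBS gave 1.08 (SE 0.42, adjusted p = 0.0645), although these groups did not overlap, and WT-LPS against WT-PBS gave 0.86 (SE 0.55, adjusted p = 0.308). The interaction of genotype and LPS was 0.22 (SE 0.73, adjusted p = 0.906).

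Plac8 (chr5:100553725-100572245, minus strand) had an H3K4me3 peak at its start in all 6 groups measured, in KO-PBS from chr5:100569401 to 100572600. An H3K27ac peak, the mark of active starts and enhancers, was listed there in LP, PP, KO-PBS and WT-PBS but not in PL or LL, and an ATAC peak in LL and PP only. Within the gene body the lists held 7 ATAC peaks in LL, 6 in PL, 3 in LP and 4 in PP, and 2 in each Ercc1 group. Plac8 was thus the only monocyte member with marks of an active start, in groups with and without LPS. Its upstream sequence is shown for that reason (RefSeq, GRCm38.p6, chr5:100572206-100572455, minus strand), with the same core in capitals.

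Plac8 upstream: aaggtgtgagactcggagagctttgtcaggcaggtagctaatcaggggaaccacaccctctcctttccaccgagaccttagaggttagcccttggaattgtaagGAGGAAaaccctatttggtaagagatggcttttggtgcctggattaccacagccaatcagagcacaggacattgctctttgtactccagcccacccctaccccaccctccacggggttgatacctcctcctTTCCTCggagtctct

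The 2 matches lie 146 and 15 bases before the start, and Plac8 shares no stretch of 50 bases with another gene model.

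Ccr2, the receptor for the chemokine Ccl2 that brings monocytes out of the bone marrow and to sites of inflammation, was called higher in both comparisons of LPS with PBS as the last injection. It had 50.9, 29.9 and 36.8 CPM in PL, against 22.2, 20.8 and 25.0 CPM in PP. In LL it had 43.1, 39.6 and 40.9 CPM, against 21.2, 21.1 and 25.6 CPM in LP. The groups did not overlap in either comparison, and PL 1 rather than PL 2 or PL 3 was the highest. The log2 difference was 0.82 for PL against PP (SE 0.16, adjusted p = 0.000844) and 0.88 for LL against LP (SE 0.17, adjusted p = 0.00118), and both were called in all 21 alternatives. In LL against LP, Ccr2 was the only one of 6 tested members called higher and 0 were lower, where 15.4% of all genes tested were higher and 15.9% lower. LL against PL gave 0.06 (SE 0.16, adjusted p = 0.847).

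Ccr2 lies at chr9:124101950-124113557 on the plus strand. Of the 6758 stretches of 50 bases in its gene model, 129 also occur in other gene models, so part of its reads may not be assigned to 1 gene, and its deposited counts are not whole numbers. How much of the Ccr2 count came from other genes is not given here, and the Ccr2 differences are therefore uncertain as a measure of Ccr2 transcripts.

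In the Ercc1 model Ccr2 had 21.4, 26.0 and 14.7 CPM in KO-LPS, against 23.8, 24.6 and 23.4 CPM in WT-LPS. In KO-PBS it had 15.1, 20.9 and 15.8 CPM, against 23.1, 27.2 and 4.58 CPM in WT-PBS. The groups overlapped in all 4 comparisons and none was called, with adjusted p from 0.597 to 0.934. The low WT-PBS value was that of Control_PBS_175, which also stood apart by its microglia sum.

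Other monocyte genes were higher in PL than in PP as well. Of a list of 15 further monocyte genes, 6 of the 8 tested were higher in PL than in PP and 0 lower, beside 26% of all genes higher and 26.6% lower, with the largest differences at Chil3 (5.39 on the log2 scale) and Fn1 (4.97). Chil3, a secreted chitinase-like protein of monocytes and neutrophils, had 0, 18.3 and 44.2 CPM in PL, against 0, 0.128 and 2.10 CPM in PP, and so followed the S100 genes. Fn1 (fibronectin) had 9.09, 4.86 and 6.59 CPM in PL, against 0.115, 0.128 and 0.572 CPM in PP, and was highest in PL 1. In LL against LP 2 of the 8 were higher, Fn1 by 1.57 and Ccr1 by 1.48, beside 15.4% of all genes, and in LL against PL 3 were lower, beside 4.73%. The sum over the list was 79.7 to 127 CPM in PL against 15.8 to 29.3 CPM in PP, and 56.5 to 85.8 CPM in LL against 24.7 to 38.6 CPM in LP.

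The summed monocyte list separated the genotypes within each treatment of the Ercc1 model. Its sum was 308 to 368 CPM in KO-LPS against 89.9 to 97.9 CPM in WT-LPS, and 93.4 to 167 CPM in KO-PBS against 38.3 to 61.5 CPM in WT-PBS. Of 10 tested genes, 8 were higher in KO-LPS when set against WT-LPS (Hp by 6.15 and Fn1 by 5.00 on the log2 scale), 2 in KO-PBS than in WT-PBS (Ms4a4c by 3.70 and Fn1 by 3.66) and 7 in KO-LPS than in KO-PBS. Of all genes tested, 13.4%, 8.19% and 17.7% were higher in these 3 comparisons. Of the 15 genes of the list, 10 were highest in KO_LPS_600, 3 in KO_LPS_194 and 0 in KO_LPS_193. The share of all genes highest in KO_LPS_600 was not counted. Fn1 was high in every KO-LPS library and lowest of them in KO_LPS_600, with 79.1, 81.2 and 77.6 CPM, against 3.45, 1.29 and 2.69 CPM in WT-LPS. Chil3 was seen almost only in KO_LPS_600, with 75 counts, against 0 in KO_LPS_193 and KO_LPS_194. A list of 10 interferon-stimulated genes, a response rather than a cell type, also separated the genotypes. Its sum was 847 to 1710 CPM in KO-LPS against 40.9 to 52.5 CPM in WT-LPS. With PBS it was 453 to 584 CPM in KO-PBS against 21.1 to 49.0 CPM in WT-PBS. All 10 were higher in both, beside 13.4% and 8.19% of all genes. The part of other cells or of this response in the monocyte list was not tested.

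Among the border macrophage members, Mrc1, the mannose receptor CD206, was present in every library. In the recurrent LPS model it had 28.8, 27.7 and 30.7 CPM in LL, against 21.3, 16.2 and 35.2 CPM in LP. It had 23.4, 12.1 and 17.5 CPM in PL, against 17.3, 17.5 and 19.2 CPM in PP. Both pairs overlapped, and the LL libraries were higher than all PL and PP libraries. The log2 difference was 0.70 for LL against PL (SE 0.25, adjusted p = 0.108), and 0.00 for PL against PP (SE 0.26, adjusted p = 0.995), so Mrc1 was not called in this model.

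Cd163, the scavenger receptor for haemoglobin and haptoglobin, was higher in LL than in PL. It had 3.41, 3.67 and 2.48 CPM in LL, against 0.795, 0.135 and 0.573 CPM in PL. LP had 0.962, 0.940 and 4.2 CPM, against 0.808, 1.79 and 0.953 CPM in PP. LL and PL did not overlap, and PL lay below PP without overlap. For Cd163, Mrc1, Pf4 and Ms4a7 alike, LP 3 was the highest of all 12 recurrent LPS libraries. LL against PL gave a log2 difference of 2.57 (SE 0.62, adjusted p = 0.0225), and PL against PP gave -1.24 (SE 0.67, adjusted p = 0.134). In LL against PL, 1 of 6 members was higher and 1 lower, where 3.62% of all genes tested were higher and 4.73% lower. The Cd163 call was not made without LL 1, LL 2 or PL 2, where the adjusted p was 0.0635, 0.1096 and 0.0910.

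LP 3 decided other values too. Without it, 8 members passed the filter among 16594 genes tested. Of these members, 3 were called higher in LL against LP (Ccr2, Cd163 and Mrc1), beside 2177 of all genes. In LL against PL 2 were higher (Cd163 and Mrc1), beside 552 of all genes. In PL against PP 1 was lower (Cd163), beside 4304, and in the interaction 1 was higher (Cd163), beside 15. The interaction of the 2 injections had 0 calls among 6 members in all libraries, 4 of which had an unadjusted p under 0.05 (S100a8, S100a9, Plac8 and Cd163). Of all 16096 genes tested, 2459 had an unadjusted p under 0.05 in this interaction. The lowest adjusted p was that of Plac8 at 0.175, and 0.335% of all genes tested were higher and 1.46% lower in this interaction. DESeq2 also called 0 members, whereas limma with surrogate variables called Plac8, S100a8 and S100a9 lower and limma without them called Plac8.

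LP against PP, the comparison 4 weeks after a first LPS injection, had 0 of 6 members higher or lower, and 0 with an unadjusted p under 0.05. Of all genes tested, 0% were higher and 0% lower in this comparison, although 817 had an unadjusted p under 0.05. DESeq2 called 2 genes higher and 1 lower, limma with surrogate variables 2 higher and 0 lower, and edgeR without the filter on low counts 51 higher and 6 lower, and leaving out LP 3 gave 6 higher, none of them a member. The lowest unadjusted p among the members was that of Mrc1 at 0.151, with a log2 difference of 0.39 (SE 0.25). No other tool called a member. S100a8 and S100a9 were spread most within these groups, with 1.20 to 4.26 CPM of S100a8 in LP against 0 to 12.6 CPM in PP.

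Pf4 (platelet factor 4), a chemokine of platelets that border macrophages also express, and Ms4a7, a membrane protein of the MS4A family used to tell border macrophages from microglia, were under 3 CPM in the recurrent LPS model. Pf4 had 1.10, 1.03 and 0.903 CPM in LL, against 0.481, 0.502 and 2.60 CPM in LP. It had 1.24, 0.674 and 1.43 CPM in PL, against 0.692, 0.577 and 0.381 CPM in PP. LL and LP overlapped, as did PL and PP. Ms4a7 had 0.487, 0.147 and 0.226 CPM in LL against 0.802, 0.627 and 2.60 CPM in LP, with no overlap, and 1.06, 0.405 and 1.15 CPM in PL against 1.27, 0.0641 and 0.381 CPM in PP, with overlap. Neither gene passed the filter on low counts, and LP 3, at 2.60 CPM, was the highest library for both.

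In the Ercc1 model, Mrc1 was higher in KO than in WT mice and higher after LPS in both genotypes. It had 37.6, 43.7 and 43.1 CPM in KO-LPS, against 16.8, 11.4 and 13.4 CPM in WT-LPS. In KO-PBS it had 21.02, 25.7 and 13.3 CPM, against 4.26, 10.9 and 4.45 CPM in WT-PBS. None of the 4 pairs of groups overlapped, and KO_LPS_600 lay between the other KO-LPS libraries. The log2 difference was 1.58 for KO-LPS against WT-LPS (SE 0.33, adjusted p = 0.00402), which was called in all 19 alternatives, and 1.61 for KO-PBS against WT-PBS (SE 0.34, adjusted p = 0.00898). It was 1.06 for KO-LPS against KO-PBS (SE 0.33, adjusted p = 0.0241) and 1.09 for WT-LPS against WT-PBS (SE 0.34, adjusted p = 0.0394). The interaction was -0.03 (SE 0.46, adjusted p = 0.981).

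The calls of Mrc1 between LPS and PBS depended on single libraries. KO-LPS against KO-PBS was not called without KO_LPS_194, KO_LPS_600, KO_PBS_638 or KO_PBS_642, with adjusted p of 0.0604, 0.0570, 0.0556 and 0.0967. WT-LPS against WT-PBS was called without KO_LPS_600, KO_PBS_641, KO_PBS_642 or Control_PBS_171 only, and the adjusted p without the other 8 libraries ran from 0.0524 to 0.139. Without Control_PBS_171, the highest of its group, the log2 difference was 1.64. The genotype difference of Mrc1 with PBS was not called when only the compared groups were fitted (adjusted p = 0.0590).

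**Figure D3:**
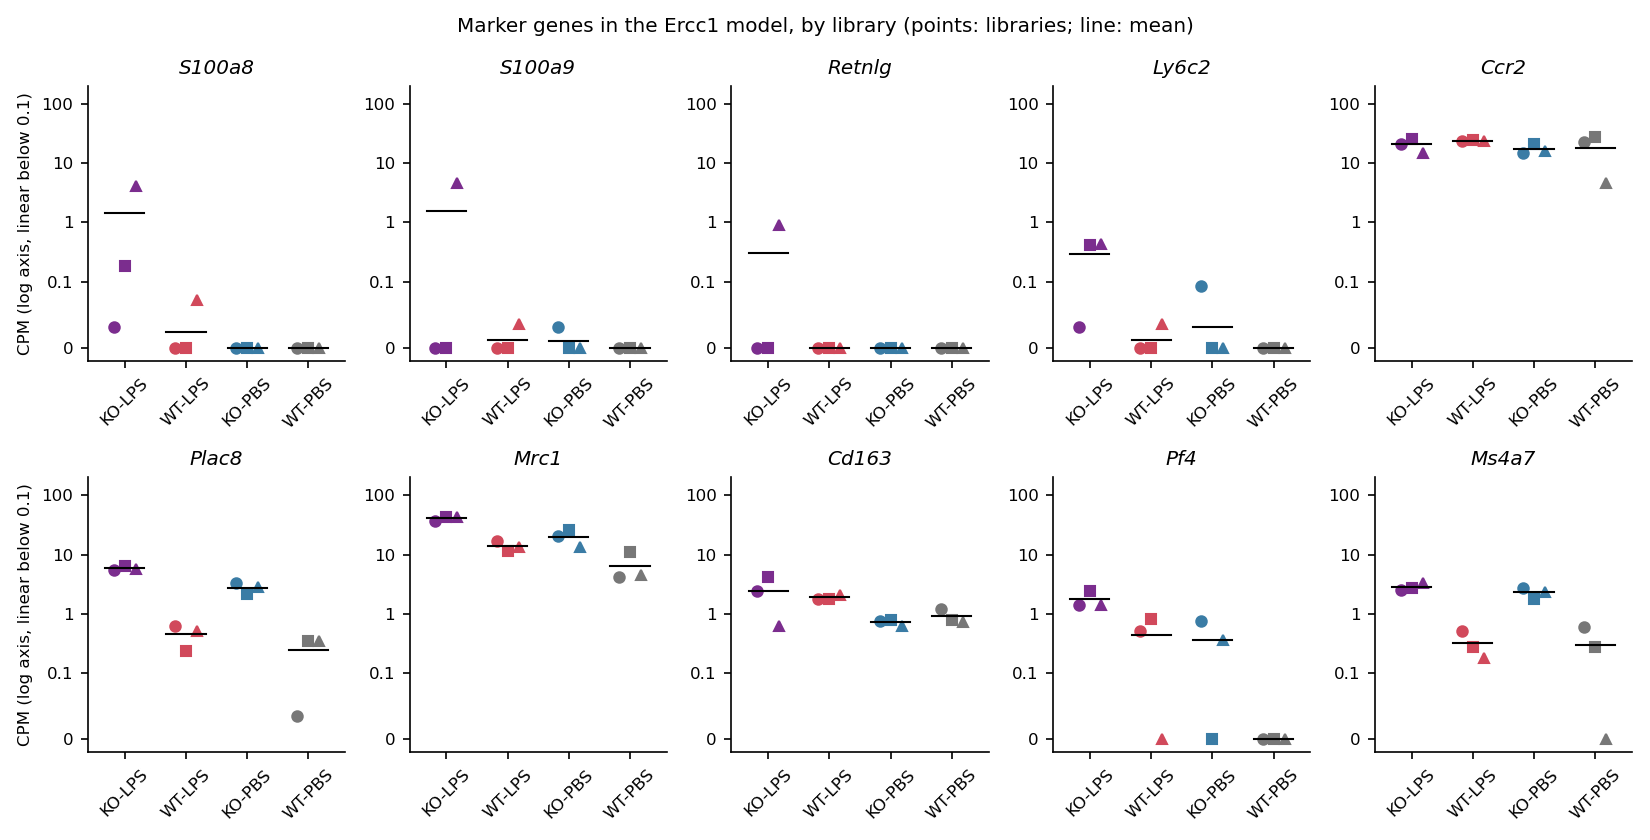
CPM of the 10 genes in the Ercc1 model on a log axis that is linear below 0.1, with 1 point per library (circle, square and triangle in order of mouse number) and a line at the mean of each group. Plac8, Mrc1 and Ms4a7 are higher in every KO library than in every WT library of the same treatment, with Ms4a7 at 2.52 to 3.34 CPM in KO-LPS against 0.182 to 0.525 CPM in WT-LPS, while S100a8, S100a9 and Retnlg rise above 0.2 CPM in KO_LPS_600 only.

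Ms4a7 was higher in KO mice whether or not they had received LPS. It had 2.52, 2.69 and 3.34 CPM in KO-LPS, against 0.525, 0.272 and 0.182 CPM in WT-LPS. In KO-PBS it had 2.71, 1.82 and 2.39 CPM, against 0.599, 0.282 and 0 CPM in WT-PBS. The genotypes did not overlap, whereas the treatments did within each genotype. The log2 difference was 3.12 with LPS (SE 0.74, adjusted p = 0.00800), called in all 19 alternatives, and 3.01 with PBS (SE 0.74, adjusted p = 0.0209). The call with PBS was not made without KO_PBS_638, KO_PBS_642 or Control_PBS_171 (adjusted p = 0.0642, 0.0571 and 0.0569), nor with the compared groups alone. LPS itself gave 0.30 in KO mice (SE 0.64, adjusted p = 0.746) and 0.20 in WT mice (SE 0.80, adjusted p = 0.894).

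Pf4 had 1.41, 2.47 and 1.39 CPM in KO-LPS, against 0.525, 0.817 and 0 CPM in WT-LPS. It had 0.749, 0 and 0.362 CPM in KO-PBS, and 0 counts in all 3 WT-PBS libraries. KO-LPS was therefore above every other library, and the remaining groups overlapped. Against the floor of 3 counts over the WT-PBS group, Pf4 was at least 14.3-fold higher in WT-LPS, from 38 counts (adjusted p = 0.0424), and at least 13.4-fold higher in KO-PBS, from 36 counts (adjusted p = 0.0712). The call in WT-LPS was not made without KO_LPS_193, KO_LPS_194, KO_LPS_600, Control_LPS_149, Control_LPS_184, KO_PBS_642 or any 1 of the WT-PBS libraries, where the adjusted p ran from 0.0530 to 0.113, nor with limma. KO-LPS against WT-LPS gave 1.95 on the log2 scale (SE 1.11, adjusted p = 0.235).

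Cd163 had 2.46, 4.16 and 0.623 CPM in KO-LPS, against 1.80, 1.80 and 2.11 CPM in WT-LPS. In KO-PBS it had 0.749, 0.778 and 0.634 CPM, against 1.23, 0.775 and 0.724 CPM in WT-PBS. KO_LPS_600, the library with the neutrophil transcripts, was the lowest of all 12 for Cd163, and the groups overlapped except WT-LPS and WT-PBS. KO-LPS against KO-PBS gave a log2 difference of 1.74 (SE 0.53, adjusted p = 0.0229), which was not called without KO_LPS_193, KO_LPS_194, KO_PBS_638, KO_PBS_641 or KO_PBS_642 (adjusted p = 0.0518, 0.132, 0.0589, 0.0543 and 0.0749), nor with limma and surrogate variables (log2 difference 1.46, adjusted p = 0.0853). Without KO_LPS_194 the difference was 1.11. Cd163 did not separate the genotypes, with -0.34 in KO-PBS against WT-PBS (SE 0.54, adjusted p = 0.756) and 0.33 in KO-LPS against WT-LPS (SE 0.50, adjusted p = 0.684).

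Counted over the 6 tested members, KO-LPS against WT-LPS had 3 higher (Mrc1, Plac8 and Ms4a7), where 13.4% of all genes tested were higher and 13.6% lower. KO-PBS against WT-PBS had the same 3 higher, where 8.19% were higher and 3.37% lower. KO-LPS against KO-PBS had 2 higher (Mrc1 and Cd163), where 17.7% were higher and 19.3% lower. WT-LPS against WT-PBS had 2 higher (Mrc1 and Pf4), where 10.7% were higher and 9.15% lower. No member was lower in any of the 4, and the 2 genotype comparisons share no library, while each shares its libraries with the LPS comparisons. The interaction of genotype and LPS had 0 calls and 0 members with an unadjusted p under 0.05, where 1.55% of all genes tested were higher and 3.08% lower, and no other tool called a member. Of all 17460 genes tested, 3606 had an unadjusted p under 0.05 in this interaction.

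Among further border macrophage genes, Lyve1, Cd209f, Cbr2 and Folr2 were low in these libraries. Lyve1 averaged at most 1.66 CPM in any group, Cd209f at most 0.524 CPM, Cbr2 at most 2.12 CPM and Folr2 at most 1.92 CPM. Cd209f, a lectin of meningeal macrophages, had 2, 8 and 1 counts in KO-LPS, against 2, 8 and 0 counts in WT-LPS, and Lyve1 had 1.89, 2.37 and 0.733 CPM in KO-LPS, against 1.35, 0.613 and 0.873 CPM in WT-LPS. The groups overlapped for both. Lyve1 was called higher in KO-LPS against KO-PBS, by 2.35 on the log2 scale (adjusted p = 0.0487). Folr2, a folate receptor, had 2.37, 1.64 and 1.76 CPM in KO-LPS, against 0.637, 0.1702 and 0.473 CPM in WT-LPS, and Cbr2, a carbonyl reductase, had 1.37, 1.92 and 0.697 CPM in KO-LPS, against 0.562, 0.409 and 0.655 CPM in WT-LPS. These groups did not overlap, but neither gene was called (adjusted p = 0.0851 for Folr2 and 0.106 for Cbr2). Ccl8, a chemokine gene of the same list, was seen in KO mice only. It had 97 counts in KO-LPS and 37 in KO-PBS, against 0 in WT-LPS and WT-PBS.

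Of a list of 16 further border macrophage genes, 15 were tested in the Ercc1 model. In KO-LPS against WT-LPS 5 were higher, among them Siglec1 (log2 difference 3.95) and Colec12 (3.90), and 2 were lower, Maf (-2.49) and Stab1 (-1.39). In KO-PBS against WT-PBS 2 were higher, Colec12 (5.27) and Siglec1 (3.86), and the same 2 were lower. Of all genes tested, 13.4% were higher and 13.6% lower in KO-LPS against WT-LPS, and 8.19% higher and 3.37% lower in KO-PBS against WT-PBS. The median log2 difference of the 15 in KO-LPS against WT-LPS was 1.47, beside -0.04 over all genes. Siglec1, a sialic acid receptor that interferon raises in macrophages, had 104, 96.7 and 81.8 CPM in KO-LPS, against 5.02, 6.23 and 6.95 CPM in WT-LPS. Dab2, an endocytic adaptor, had 103, 127 and 121 CPM in KO-LPS, against 46.4, 37.3 and 42.8 CPM in WT-LPS. Stab1 and Maf are also expressed by microglia and made up most of the summed list. In the recurrent LPS model 8 were tested, and in PL against PP Cd38 (3.14) and Dab2 (2.18) were higher and Maf (-2.88) lower. Of all genes tested, 26% were higher and 26.6% lower in PL against PP, so such calls were common. The median log2 difference of the 8 was 0.04, beside -0.04 over all genes. Dab2 had 120.9, 110.2 and 88.9 CPM in PL, against 22.96, 22.88 and 24.96 CPM in PP. Of the 16 genes of this list, 8 were highest in LP 3. No other recurrent LPS library was highest for more than 2 of them. The share of all genes highest in LP 3 was not counted. The part of border macrophages in these values was not tested.

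Mrc1 was the member with the most complete set of active marks. It had an ATAC peak at its start in all 8 groups, and H3K4me3 and H3K27ac peaks there in all 6 groups measured, with no H3K27me3 peak in KO-PBS or WT-PBS. The H3K4me3 peak spanned chr2:14228401-14230200 in PL, against chr2:14228401-14230400 in PP. Within the gene body the lists held 7 ATAC peaks in each recurrent LPS group, and 5 in KO-LPS against 3 in WT-LPS and 5 in KO-PBS against 3 in WT-PBS, but the WT-PBS list was also the shortest of all, with 36412 ATAC peaks. The upstream sequence of Mrc1 (chr2:14229392-14332057, plus strand) is shown because its start carried these marks in every group (RefSeq, GRCm38.p6, chr2:14229164-14229413, plus strand), with the PU.1 core in capitals.

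Mrc1 upstream: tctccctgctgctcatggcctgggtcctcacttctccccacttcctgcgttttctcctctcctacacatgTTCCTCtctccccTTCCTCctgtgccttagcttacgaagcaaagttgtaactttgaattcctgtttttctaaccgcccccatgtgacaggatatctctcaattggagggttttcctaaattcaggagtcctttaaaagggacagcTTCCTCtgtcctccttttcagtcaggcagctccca

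The 3 matches lie 180, 167 and 35 bases before the start, more than in any other member.

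Pf4 (chr5:90772435-90773383, plus strand) had an H3K4me3 peak at its start in all 6 groups and an H3K27ac peak in LP and PP only. It had 1 ATAC peak there in LL, 3 in LP and 2 in PP, and 0 in the other 5 groups. It lay in an H3K27me3 region in KO-PBS and WT-PBS. Cd163 (chr6:124304656-124330527, plus strand) had no ATAC, H3K4me3 or H3K27ac peak at its start, and an H3K27me3 region reached its start in KO-PBS but not in WT-PBS. Ms4a7 (chr19:11321039-11336146, minus strand) and Ccr2 had no peak of any kind at the start, also in KO-PBS, where Ms4a7 RNA was higher than in WT-PBS. Ccr2 had 2 ATAC peaks within its gene body in PL and LL, against 1 in PP and LP. Ly6c2 was covered by H3K27me3 in KO-PBS and WT-PBS, and Retnlg in WT-PBS only.

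**Figure D4:**
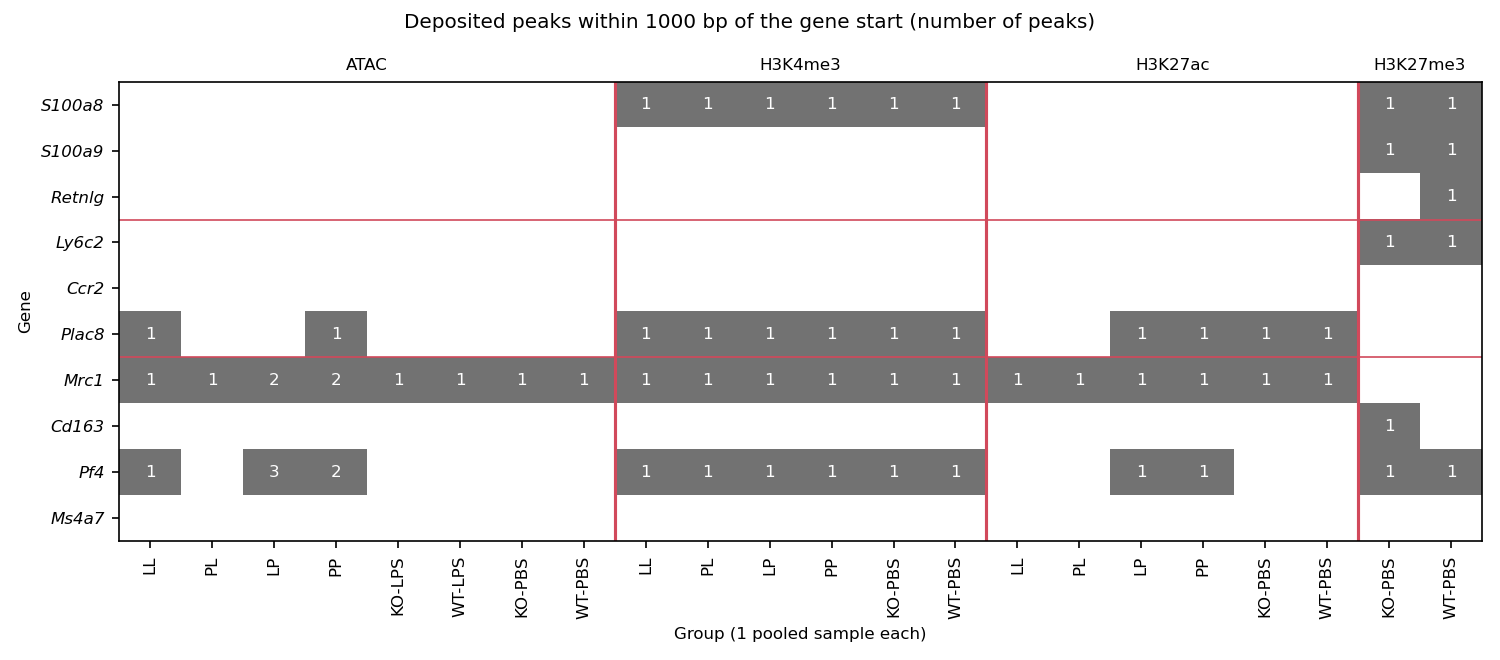
Number of deposited peaks within 1000 bp of the start of each gene (rows) in each group (columns), by mark, with 1 pooled sample per group. Mrc1 is filled for ATAC, H3K4me3 and H3K27ac in every group, S100a9 and Ly6c2 are filled for H3K27me3 only, and Ccr2 and Ms4a7 are empty.

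Counted over the 10 members, an ATAC peak at the start was listed for 3 in LL, 1 in PL, 2 in LP and 3 in PP, and for 1 in each Ercc1 group. H3K4me3 was listed for 4 in every group measured. H3K27ac was listed for 1 in LL, 1 in PL, 3 in LP and 3 in PP, and for 2 in KO-PBS and WT-PBS. H3K27me3 was listed for 5 in KO-PBS and 5 in WT-PBS. Over 21924 protein-coding genes, 46.9% to 55.5% had an ATAC peak at the start depending on the group, 60.8% to 64.2% had H3K4me3, 47.9% to 55.2% had H3K27ac, and 37.5% had H3K27me3 in KO-PBS against 39.2% in WT-PBS. Of the 12 microglia genes, all 12 had H3K27ac in every group and at least 10 had an ATAC peak. The pools allow no test, and a peak at the start of a marker could not be assigned to microglia or to other cells.

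The genes whose deviations from the group means were most like those of the summed neutrophil members over 12 libraries were Zfp182 and Anxa1 (r = 0.97 each) and Tatdn3 (r = 0.96) in the recurrent LPS model, and Csf3 (r = 0.99) and Zfp280b (r = 0.97) in the Ercc1 model. For the monocyte members they were Pi4kb and Etv3 (r = 0.96 each) in the recurrent LPS model and Agmo and Rab3il1 (r = 0.99 each) in the Ercc1 model. For the border macrophage members they were AC154544.1 (r = 0.96) and Gpr31b (r = 0.92) in the recurrent LPS model and Adam9 (r = 0.96) and Dzip1 (r = 0.92) in the Ercc1 model. These are among the highest of 15259 to 16094 correlations per list and model on log2 CPM, they share the libraries and their depth, and none of the genes named here was named for both models. Single libraries weigh heavily on them. The summed neutrophil members had 9.75 CPM in KO_LPS_600 and at most 0.183 CPM in the other Ercc1 libraries. Control_PBS_175 stood apart for the monocyte members, at 4.93 CPM, and LP 3 for the border macrophage members of the recurrent LPS model, at 44.6 CPM. Ccr2 gave 4.58 CPM of the first sum and Mrc1 35.2 CPM of the second. The monocyte and border macrophage sums thus mostly follow Ccr2 and Mrc1, and so do the correlations with them.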

How the data were processed

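Per the labels and the study's methods, RNA was sequenced from 24 microglia samples, and the authors trimmed the reads with bbduk, aligned them to GRCm38 with STAR 2.7.3a and counted them with featureCounts 2.0.0. The deposited tables hold expected counts per gene, with fractions and without scaling, and the gene length. How the fractions arose and whether counting used strand are not given in the sources used here, and these name different library kits for the recurrent LPS model. For chromatin, the deposited peak lists hold a score and a −log10 p for each peak, made by the authors with Bowtie2 2.3.5.1 and Genrich 0.5 (ATAC) or SPAN (histone marks). H3K4me1 was not used, since file names and labels give opposite genotypes.

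Expected counts were rounded to whole numbers (at least 99.99% of each total kept), filtered with filterByExpr, scaled by TMM and entered into the quasi-likelihood test that edgeR 4.0.16 (R 4.3.3) offers, with group means over the 12 libraries of a model and Benjamini-Hochberg adjustment over all 16096 (recurrent LPS) or 17460 (Ercc1) genes tested. The SE is that of the log2 difference. The study's own test, limma with surrogate variables (limma 3.58.1, sva 3.50.0), was an alternative, with DESeq2 1.42.0, other filters and scaling, the compared groups alone, a replicate block and each library left out. No column was left without a sample. Replicates were 3 mice, and no 2 libraries agree within sampling noise (at least 3.10 chi-square per gene). Peaks were counted within 1000 bp of the gene start in GENCODE vM21, and sequences came from RefSeq.

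All 10 genes are named, and from the other lists up to 3 with the highest level and up to 2 per comparison with the largest change, with some further genes chosen after their values were seen. The members and lists were chosen with earlier results of these data known. Ly6c1, and the alternative without PL 2 and PL 3, were chosen after seeing the data. A gene withheld from this text is not reported here.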

Additional observations from a re-analysis of the deposited data

How the results depend on the processing

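Over 396 recomputed counts of called members, 337 stayed within 1.5 times the reported count. Relative to the reported counts of higher members in PL against PP (4), DESeq2, limma without surrogate variables, the compared groups alone and leaving out PL 2 and PL 3 each gave 2, and leaving out single libraries gave 2 to 5. Lower members there were 0, and 1 with limma with surrogate variables (0 to 1 without single libraries). In LL against LP, 1 was higher, 2 with limma without surrogate variables (1 to 3 without single libraries), and 0 were lower, 1 with limma with surrogate variables or the compared groups alone. In LL against PL, 1 was higher, 2 without a filter or with limma with surrogate variables and 0 without PL 2 and PL 3 (0 to 2 without single libraries), and 1 was lower, 4 without a filter, 2 with the replicate block and 0 without PL 2 and PL 3 (0 to 3 without single libraries). The interaction of injections had 0 higher (0 to 1 without single libraries) and 0 lower, 2 without a filter, 3 and 1 with limma with and without surrogate variables and 1 with the replicate block. KO-PBS against WT-PBS had 3 higher and 1 with the compared groups alone. WT-LPS against WT-PBS had 2 higher, 1 and 0 with limma with and without surrogate variables and 0 with the compared groups alone (0 to 2 without single libraries). KO-LPS against KO-PBS had 2 higher, and 4 without a filter or with limma without surrogate variables (0 to 3 without single libraries). KO-LPS against WT-LPS had 3 higher and 5 without a filter. Members tested numbered 10 without a filter, 4 to 6 with the compared groups alone and 6 to 9 without single libraries, against 6 as reported. The counts in these settings are therefore not all out of 6. Over all genes without a filter, 2131 of 28952 were higher in KO-LPS against WT-LPS, and 852 of 31340 lower in LL against PL. The causes of these changes were not tested. Without PL 2 and PL 3, an alternative chosen after seeing that they were the high libraries, PL is PL 1 alone and its spread is taken from the other groups. The log2 differences were then -5.18 for S100a8 and -2.88 for S100a9 in PL against PP, and 0.27 for S100a9 in LL against PL. This choice fixed their direction, so they say nothing about stability.

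The replicate numbers of the recurrent LPS model did not pair the libraries: deviations of same-numbered libraries correlated at -0.41 to 0.41 (median -0.01, 18 pairs) and those of other libraries at -0.39 to 0.51 (36 pairs). With the replicate block, 2 members instead of 1 were lower in LL against PL and 1 instead of 0 in the interaction, and it changed no other count by more than 1.5 times. No paired analysis was possible for the Ercc1 model because its labels hold mouse numbers that the groups do not share. Restricting the peak lists to their higher-scoring 50% or widening the window to 2000 bp moved 23 of 44 counts of members with a peak at the start, and left 21 as they were or nearly so. Members with few counts are limited by depth, above all in the smaller recurrent LPS libraries.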
